A study of Mus musculus with 21 samples.

Results

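The genes described here are 10 regulators of the G1 phase of the cell cycle: the cyclins Ccnd1, Ccnd2, Ccnd3 and Ccne1, the kinases Cdk4 and Cdk6, and the kinase inhibitors Cdkn1a, Cdkn1b, Cdkn2c and Cdkn2d. They were taken by name, all 10 were found on the array, and they are 10 of 18194 genes with a probe set of their own. They hold 27 of the 45101 probe sets, and the one with the highest mean log2 intensity over all 21 arrays represented each gene. Expression was measured on Affymetrix mouse arrays in sorted bone marrow cells of mice on a C57/BL6 background. The question was what loss of Dot1l, a histone H3 lysine methyltransferase gene, does to expression in 2 progenitor populations.

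There were 4 groups. LSK-Dot held 6 arrays of LSK cells (lineage-negative cells that carry Sca-1 and Kit, the fraction that holds stem and multipotent progenitor cells) from Dot1l fl/fl x Mx-Cre mice with both alleles deleted. LSK-Control held 6 arrays of the same fraction, where the genotype was Dot1 wt/wt x Mx-Cre. GMP-Dot held 4 arrays and GMP-Control 5 arrays of granulocyte-macrophage progenitors (GMP) from mice of these same genotypes. Mice of every group carried Mx-Cre and were injected with pIpC, a synthetic double-stranded RNA that turns on the interferon-responsive Mx promoter. That promoter is active in many tissues, so the deletion is not limited to blood cells. The labels give no age and do not tie arrays to animals, so a p-value here measures the spread between arrays, and its precision is set by how many there were.

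D-type cyclins are made in response to growth signals and activate Cdk4 and Cdk6, which phosphorylate the retinoblastoma protein and its relatives and so release E2F transcription factors. E2F factors drive the genes of DNA replication, among them Ccne1, whose product activates Cdk2 at the entry into S phase. The INK4 inhibitors, encoded by Cdkn2c and Cdkn2d, bind Cdk4 and Cdk6 directly, while the Cip/Kip inhibitors, encoded by Cdkn1a and Cdkn1b, bind cyclin and kinase complexes. In bone marrow these genes are known for setting the balance between resting stem cells and dividing progenitors.

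Marker genes were set beside the sort labels. The summed intensity of 8 LSK markers was 432.9 to 6382.4 in LSK-Dot and 5194.9 to 7243.0 in LSK-Control, against 779.5 to 1561.0 in GMP-Dot and 302.0 to 982.8 in GMP-Control. That of 7 GMP markers was 9143.6 to 22024.0 in LSK-Dot and 7262.8 to 10833.4 in LSK-Control, against 34982.3 to 46797.8 in GMP-Dot and 38307.9 to 53510.1 in GMP-Control. The LSK-Dot arrays were not alike. K1359 alone had an LSK marker sum at the level of LSK-Control, 6382.4, and its GMP marker sum of 9143.6 also lay inside the LSK-Control range. K1091, K1421 and K1422 had LSK marker sums of 2497.1 to 3027.5, and K1190 had 1326.5, inside the GMP-Dot range. On these arrays the LSK markers did not move together. Cd34 was 9.52 to 10.38 on the log2 scale, against 9.98 to 10.48 in LSK-Control. Hlf was 5.36 to 8.98, against 10.77 to 11.52, and Flt3 and Mecom also lay below every LSK-Control array. In the fit over all genes described below, no gene was called in LSK-Dot against LSK-Control, these markers included. Whether the deletion or the cells sorted lay behind their levels was not tested, so a low sum in LSK-Dot does not check the sort. K1272 went against its label: it had the LSK marker sum of 432.9, and its mean Spearman correlation over genes was 0.649 with the other LSK-Dot arrays and 0.723 with GMP-Control. Its GMP marker sum of 12424.2 nevertheless lay below that of every GMP array. Its summed erythroid and megakaryocyte markers, 2255.3 and 2280.4, were the highest of the 21 arrays. It also had the lowest upper quartile, 6.18, and the highest median, 4.98, of log2 intensity of all arrays. With K1272 set aside, K1359 correlated at 0.931 with the rest of LSK-Dot and at 0.93 with LSK-Control, while K1091, K1190, K1421 and K1422 correlated at 0.949 to 0.961 with the rest of LSK-Dot and at 0.935 to 0.949 with LSK-Control. In LSK-Control, K1581 stood apart by other markers. Its summed intensity of 8 late neutrophil markers was 54936.3. That of K1601 was 24177.5 and that of K1603 18134.4, where no GMP array passed 16009.4. The other LSK-Control arrays had 3737.1 to 12112.7, and LSK-Dot had 793.9 to 7001.7. K1581 also had the highest B cell and monocyte marker sums of LSK-Control, at 3731.7 and 2527.0. The part of these cells in the values below was not tested. GMP-Dot K1190 and K1272 were close to each other, with a Spearman correlation of 0.982 over all probe sets, against at most 0.9701 for any other pair of arrays within a group. The upper quartile of the log2 intensities, a measure of how far an array's values spread, was 6.18 to 6.78 in LSK-Dot and 6.60 to 6.76 in LSK-Control. It was 6.71 and 6.77 on the close GMP-Dot pair and 6.27 and 6.31 on GMP-Dot K1359 and K1421, against 6.19 to 6.57 in GMP-Control. Dot1l itself, by its brighter probe set, lay between 5.95 and 7.01 on the log2 scale in LSK-Dot and between 6.08 and 6.93 in LSK-Control. In GMP-Dot it lay between 5.62 and 6.60, and in GMP-Control between 6.55 and 6.95. Whether that probe set lies in the deleted part was not tested, so it does not check the genotypes.

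Differences were tested with limma over all 18194 genes, and a gene was called at an adjusted p under 0.05 (Benjamini-Hochberg). None of the 10 genes passed that threshold for Dot1l deletion in either cell type. In LSK-Dot against LSK-Control 0 of 10 were called, where 0% of all genes were, and 1 of 10 had an unadjusted p under 0.05, against 5.61% of all genes. In GMP-Dot against GMP-Control 0 of 10 were called, where 0.143% of all genes were, and 1 of 10 had an unadjusted p under 0.05, against 13.9% of all genes. For the difference between the deletion effects, GMP minus LSK, 0 of 10 were called, where 0.033% of all genes were, and 2 of 10 passed the unadjusted threshold, against 13.6%. In GMP-Control against LSK-Control 1 of 10 was called, Ccnd2, where 12.0% of all genes were, and 4 of 10 passed the unadjusted threshold, against 33.8%. In GMP-Dot against LSK-Dot 0 of 10 were called, where 0.143% of all genes were, and 3 of 10 passed the unadjusted threshold, against 7.28%. The comparisons share arrays, so their counts are not independent of each other.

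The median log2 difference of the 10 genes was 0.15 in LSK-Dot against LSK-Control, where that of all genes was 0.06. It was -0.52 against -0.20 in the GMP deletion comparison, -0.70 against -0.26 for the difference of the deletion effects, -0.14 against 0.28 in control cell types, and -0.59 against 0.01 in deleted cell types. The median of all genes depended on dim genes. Over the genes with a mean level above that of the median gene, it was -0.02 in LSK deletion and 0.0002 in GMP deletion. Over the same genes it was 0.08 for the difference of the deletion effects, -0.07 in control cell types and 0.0006 in deleted cell types. By the representative probe set, all 10 genes had a lower mean in GMP-Dot than in LSK-Dot, where 48.6% of all genes did. All 10 still did without LSK-Dot K1272, but 9 of 10 did with the mean of all probe sets of each gene. Taken singly, 3 of 7 probe sets of Ccnd2, 2 of 3 of Cdk6, 1 of 2 of Cdkn1a and 1 of 2 of Cdkn1b had a higher mean in GMP-Dot. The median in that comparison is a description of genes taken by name, and none of the 10 was called in it. In GMP deletion 7 of 10 had a lower mean in GMP-Dot, where 65.7% of all genes did. The count was 5 of 10 without GMP-Dot K1421, and also 5 of 10 with the mean of all probe sets of each gene. In bulk samples such as these, fewer cells of a type and less RNA per cell cannot be told apart.

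**Figure D1:**
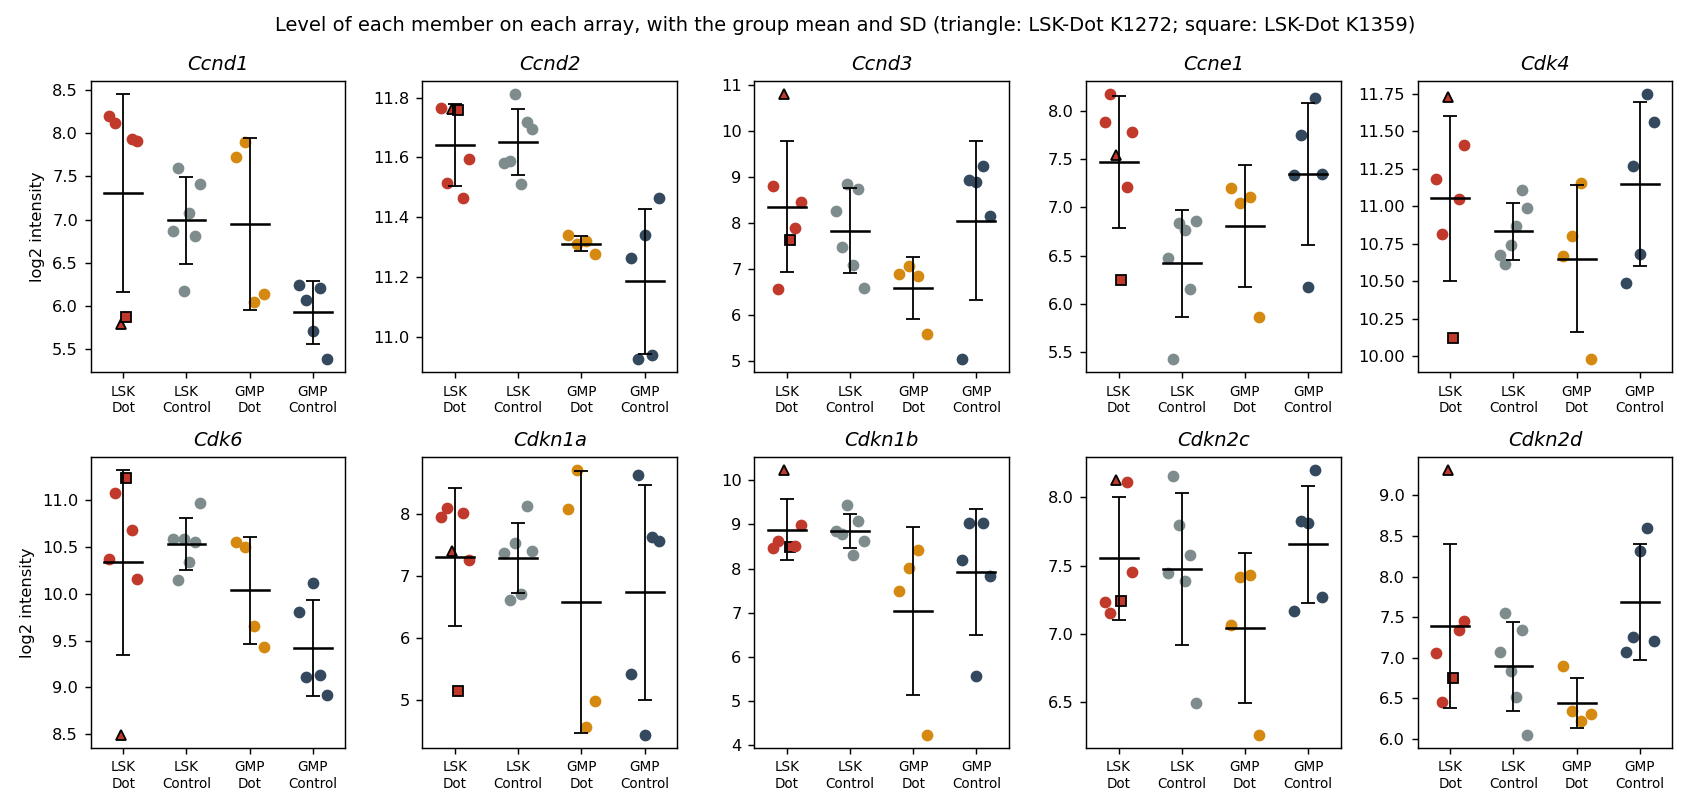
The log2 intensity of each of the 10 genes, by its representative probe set, on each of 21 arrays, with the group mean as a bar and the SD as whiskers. Vertical scales differ between genes. Triangles mark LSK-Dot K1272 and squares LSK-Dot K1359. Ccnd2 and Cdk6 lie lower on every GMP-Control array than on any LSK-Control array.

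**Figure D2:**
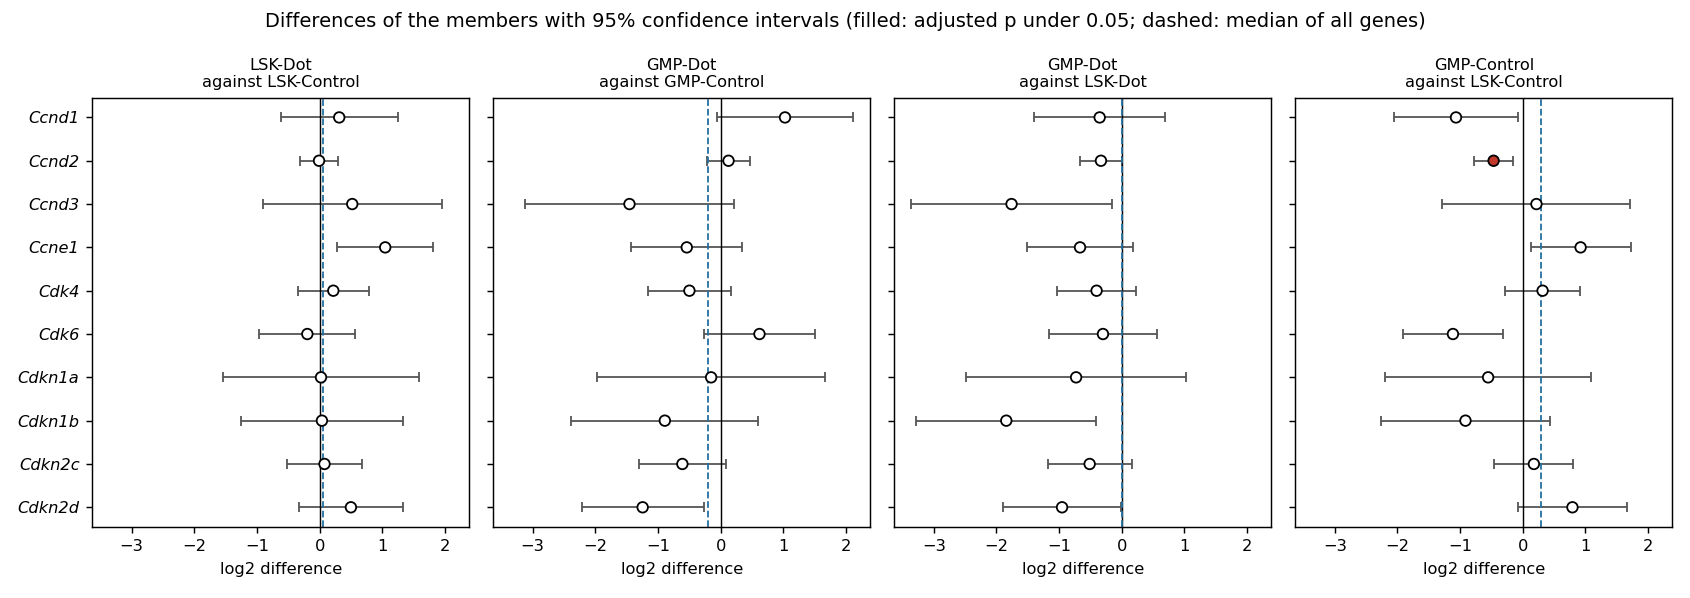
The log2 difference of each gene with its 95% confidence interval from limma in 4 comparisons. The filled point is Ccnd2 in GMP-Control against LSK-Control, the only gene of the 10 with an adjusted p under 0.05 in any of them, and the dashed line is the median of all genes.

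Promoter sequences are shown for Ccne1 and Cdkn2d, which had the lowest p of the 10 genes in LSK and in GMP deletion, and for Cdk6, which had the lowest p between control cell types among the genes with an entry in the sequence table. Ccnd2 and Ccnd1 had no entry. The windows run from 250 bases before to 50 after the start, 5′ to 3′ on the strand of the gene, in build GRCm38.p6 from RefSeq. Capitals mark a GC box (the letters GGGCGG on either strand) or a TATA motif (TATAAA on either strand). The window of Ccne1 is chr7:38107441-38107740 on the minus strand, that of Cdkn2d chr9:21291160-21291459 on the minus strand and that of Cdk6 chr5:3343643-3343942 on the plus strand.
Ccne1: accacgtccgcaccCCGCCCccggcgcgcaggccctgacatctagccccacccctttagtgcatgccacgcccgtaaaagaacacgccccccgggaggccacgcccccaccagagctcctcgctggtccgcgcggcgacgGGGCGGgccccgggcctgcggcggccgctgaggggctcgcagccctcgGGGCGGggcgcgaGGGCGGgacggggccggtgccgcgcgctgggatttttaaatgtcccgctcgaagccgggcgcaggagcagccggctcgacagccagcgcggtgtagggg
Cdkn2d: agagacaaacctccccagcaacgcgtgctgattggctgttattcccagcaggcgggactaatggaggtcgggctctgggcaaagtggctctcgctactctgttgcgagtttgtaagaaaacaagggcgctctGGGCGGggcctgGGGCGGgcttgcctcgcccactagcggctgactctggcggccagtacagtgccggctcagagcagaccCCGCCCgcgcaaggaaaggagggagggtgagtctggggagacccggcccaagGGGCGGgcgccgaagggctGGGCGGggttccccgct
Cdk6: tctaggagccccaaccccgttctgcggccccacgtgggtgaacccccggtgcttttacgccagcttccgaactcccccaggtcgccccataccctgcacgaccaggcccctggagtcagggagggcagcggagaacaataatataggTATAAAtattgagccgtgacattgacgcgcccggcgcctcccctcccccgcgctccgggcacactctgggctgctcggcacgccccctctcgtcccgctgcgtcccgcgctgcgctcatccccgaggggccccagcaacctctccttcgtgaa
Ccne1 held 4 GC boxes and 41 CpG sites in a window of 76.0% G and C, Cdkn2d held 5 GC boxes and 22 CpG sites, and Cdk6 held 0 GC boxes, 1 TATA motif and 27 CpG sites. Of all 32851 promoter windows in the table, 35.7% held a GC box and 13.6% a TATA motif. In all, 11 windows belonged to 8 of the 10 genes, and 8 of the 11 held a GC box. None of the 11 held any of 4 letter strings used here for an E2F site (TTTCGCGC, TTTGGCGC, TTTCCCGC and TTTGCCGC, both strands), which 2.26% of all windows held. A match or its absence describes these letters in this window and nothing about a factor.

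Among the D-type cyclins, Ccnd1 had 3 probe sets that did not move together in every comparison. By the representative probe set, its log2 level in LSK-Dot ran from 5.80 to 8.21 with a median of 7.92, against 6.17 to 7.60 with a median of 6.97 in LSK-Control. The LSK-Dot arrays fell apart: K1091, K1190, K1421 and K1422 lay between 7.91 and 8.21, above every LSK-Control array, while K1272 at 5.80 and K1359 at 5.87 lay below every LSK-Control array. In GMP-Dot the levels were 7.73, 7.90, 6.05 and 6.14 on K1190, K1272, K1359 and K1421, against 6.24, 6.07, 5.71, 6.21 and 5.39 in GMP-Control. The higher GMP-Dot values were those of the close pair of arrays with the higher upper quartile. The log2 difference in GMP was 1.03 ± 0.52 (SE, adjusted p = 0.377). It was 0.74 with the close pair averaged, 0.58 after adjustment for the upper quartile and 0.39 with the mean of all probe sets. In GMP-Control against LSK-Control it was -1.07 ± 0.47 (adjusted p = 0.123), and -0.19 after adjustment for the upper quartile. The probe set 1448698_at ran the same way as the representative in both comparisons, with 1.14 ± 0.54 in GMP deletion and -1.48 ± 0.49 between control cell types. The probe set 1417419_at ran the other way, with -0.99 ± 0.41 and 0.83 ± 0.37, so these arrays give no single direction for Ccnd1 in either comparison. None of these 4 differences passed the threshold over all probe sets, with adjusted p between 0.0582 and 0.3684. All 3 probe sets had a higher mean in LSK-Dot than in LSK-Control, by 0.30 to 0.87. All 3 had a lower mean in GMP-Dot than in LSK-Dot. None was called in these last comparisons.

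Ccnd2, the D-type cyclin known for its part in the expansion of blood progenitors, was the gene that differed between control cell types. Its log2 level was 11.26, 10.93, 11.34, 10.94 and 11.46 in GMP-Control, against 11.51 to 11.81 with a median of 11.64 in LSK-Control. No GMP-Control array reached the lowest LSK-Control array. It was lower in GMP-Control by a log2 difference of -0.47 ± 0.15 (SE, 95% interval -0.78 to -0.15, adjusted p = 0.0475). In the Dot1l-deleted cells it was 11.34, 11.31, 11.32 and 11.28 in GMP-Dot, against 11.46 to 11.76 with a median of 11.68 in LSK-Dot, again with no overlap. That difference was -0.33 ± 0.16 (adjusted p = 0.690) and was not called. Of all genes, 14.7% had ranges that did not overlap between control cell types, where 2 of the 10 genes did (Ccnd2 and Cdk6), and 2.03% did between deleted cell types, where 2 of the 10 did (Ccnd2 and Cdkn1b). Between genotypes the mean levels of Ccnd2 were 11.64 ± 0.14 (SD, n = 6) in LSK-Dot and 11.65 ± 0.11 (n = 6) in LSK-Control, and 11.31 ± 0.03 (n = 4) in GMP-Dot and 11.19 ± 0.24 (n = 5) in GMP-Control. By the representative probe set, the 95% interval of the deletion effect was -0.30 to 0.29 in LSK and -0.22 to 0.47 in GMP. The 7 probe sets of Ccnd2 ran wider. In LSK deletion they differed by -1.18 to 0.39, with 2 higher and 5 lower. In GMP deletion they differed by -0.11 to 1.60, with 6 higher and 1 lower. For the difference of the deletion effects all 7 lay above 0, from 0.07 to 2.01. None of these passed the threshold over all probe sets.

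The other 6 probe sets of Ccnd2 all lay lower in GMP-Control than in LSK-Control on average, with differences from -2.68 to -0.05. The probe set 1434745_at was called over all 45101 probe sets (-2.68 ± 0.61, adjusted p = 0.0116), as was the representative (adjusted p = 0.045). On 1434745_at the levels were 6.57, 7.52, 4.67, 6.52 and 6.92 in GMP-Control, against 8.87 to 9.43 in LSK-Control. In GMP-Dot this probe set read 8.43, 8.79, 7.82 and 6.04, with only K1421 inside the GMP-Control range, and its deletion effect in GMP was 1.33 ± 0.68 (adjusted p = 0.392). The call of Ccnd2 stood close to the threshold. It was kept when LSK-Dot K1272 was left out (adjusted p = 0.0152), and likewise without GMP-Control K1581 (0.0396) or GMP-Dot K1359 (0.0490), and lost when any other single array was left out, LSK-Control K1581 among them (-0.45, adjusted p = 0.0803). With the K number of the sample titles as a replicate block the call was also lost, with -0.47 (adjusted p = 0.0789) for a random and -0.46 (adjusted p = 0.283) for a fixed block.

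Ccnd3, the D-type cyclin prominent in lymphoid and erythroid precursors, varied widely within its groups. Its level was 6.89, 7.06, 6.84 and 5.60 in GMP-Dot, against 5.06, 8.93, 8.89, 9.25 and 8.16 in GMP-Control. Every GMP-Control array other than K1601 lay above every GMP-Dot array. The difference was -1.46 ± 0.80 (SE, adjusted p = 0.399), and -2.21 without GMP-Control K1601 (adjusted p = 0.170). In LSK-Dot it ran from 6.56 to 10.80 with a median of 8.18, against 6.60 to 8.85 with a median of 7.88 in LSK-Control, and the 10.80 was K1272. The difference of the deletion effects, GMP minus LSK, was -1.98 ± 1.05 (adjusted p = 0.389). In GMP-Dot against LSK-Dot the difference was -1.76 ± 0.77 (adjusted p = 0.599), and -1.27 without LSK-Dot K1272. The other probe sets, 1438805_at and 1444323_at, differed by 0.38 ± 0.68 and -0.60 ± 0.20 in GMP deletion (adjusted p = 0.799 and 0.235 over all probe sets), so 1 of the 3 ran the other way. Both were dim. Their group means were 4.05 to 5.25 and 3.27 to 3.87, where the array medians lay between 4.65 and 4.98. Whether either read above background was not tested, so their directions carry little weight.

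Ccne1, the E-type cyclin, had the lowest p of the 10 genes in LSK deletion. Its log2 level on K1091, K1190, K1272, K1359, K1421 and K1422 of LSK-Dot was 7.88, 8.17, 7.54, 6.24, 7.21 and 7.78, against 5.43 to 6.86 with a median of 6.62 in LSK-Control. Every LSK-Dot array other than K1359 lay above every LSK-Control array. The same split was seen in the summed GMP markers, which were 12424.2 on K1272 and 17358.8 to 22024.0 on K1091, K1190, K1421 and K1422, against 9143.6 on K1359 and at most 10833.4 in LSK-Control. It was not seen in the mean log2 level of these markers. By that measure K1272, at 8.89, lay inside the LSK-Control range of 8.62 to 9.47, while K1091, K1190, K1421 and K1422 had 9.95 to 10.60. The part of the marker difference in the values of Ccne1 was not tested. The log2 difference was 1.05 ± 0.37 (SE, 95% interval 0.29 to 1.81, adjusted p = 0.642), and it was not called. It was 1.29 without K1359 (adjusted p = 0.145) and 1.04 without K1272 (adjusted p = 0.673). The second probe set, 1441910_x_at, differed by 0.57 ± 0.35 (adjusted p = 0.990).

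In GMP Ccne1 had a mean of 6.80 in GMP-Dot and 7.34 in GMP-Control, the other way round from LSK. It read 7.20, 7.05, 7.11 and 5.86 in GMP-Dot, against 7.33, 7.75, 6.17, 8.13 and 7.34 in GMP-Control. The groups overlapped through GMP-Control K1603 at 6.17. The difference of the deletion effects was -1.59 ± 0.56 (adjusted p = 0.286), so a difference between the cell types in the response of Ccne1 was not called. Between control cell types Ccne1 had a mean that was higher in GMP-Control than in LSK-Control by 0.92 ± 0.38 (adjusted p = 0.106), which was not called. Both probe sets had the same sign in all of these comparisons. The summed intensity of 22 proliferation genes, which include E2F-driven replication genes, was 40791.8 to 44435.8 on K1091, K1190, K1421 and K1422 of LSK-Dot, 35434.0 on K1359 and 10442.5 on K1272, against 30436.7 to 38192.1 in LSK-Control. The 4 LSK-Dot arrays above every LSK-Control array in this sum are among the 5 that were so for Ccne1. In GMP it was 35314.5 to 37241.6 in GMP-Dot and 28777.8 to 38729.0 in GMP-Control. The part of cell division in the values of Ccne1 was not tested.

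The kinase Cdk4 had overlapping levels in all 4 groups. Its mean log2 level was 11.05 ± 0.55 (SD, n = 6) in LSK-Dot and 10.83 ± 0.19 (n = 6) in LSK-Control, and 10.65 ± 0.49 (n = 4) in GMP-Dot and 11.15 ± 0.55 (n = 5) in GMP-Control. From the lowest to the highest mean the order was GMP-Dot, LSK-Control, LSK-Dot and GMP-Control, and neighbours in that order overlapped. The difference of the deletion effects was -0.72 ± 0.42 (SE, adjusted p = 0.407), and all 3 probe sets lay on the same side in each of the comparisons.

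Cdk6, the kinase partner of D-type cyclins whose level is known, in human cells, to set how readily resting blood stem cells enter division, was lower on every GMP-Control array than on any LSK-Control array. The levels were 9.81, 9.11, 10.11, 9.13 and 8.92 in GMP-Control, against 10.15 to 10.97 with a median of 10.57 in LSK-Control. The difference was -1.11 ± 0.39 (SE, 95% interval -1.92 to -0.31, adjusted p = 0.0625), just outside the threshold. It was called when LSK-Dot K1272, an array of neither group, was left out of the shared variance (adjusted p = 0.00728) and when the compared groups were fitted alone (adjusted p = 0.0117). After adjustment for the upper quartile the difference was -0.44 (adjusted p = 0.609). All 3 probe sets were lower in GMP-Control on average, from -1.55 to -0.64.

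In the deleted cells, Cdk6 read 10.55, 10.50, 9.66 and 9.43 on K1190, K1272, K1359 and K1421 of GMP-Dot, against 8.50 to 11.24 with a median of 10.53 in LSK-Dot. The 8.50 was K1272, and the other LSK-Dot arrays lay between 10.16 and 11.24. The close GMP-Dot pair lay above every GMP-Control array and the other GMP-Dot arrays inside their range. All 3 probe sets had a higher mean in GMP-Dot than in GMP-Control, by 0.62 to 1.17, and none passed the threshold. Against LSK-Dot, 2 of the 3 had a higher mean in GMP-Dot, by 0.22 and 0.77, and the representative a lower one. None of these passed the threshold either.

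Of the Cip/Kip inhibitors, Cdkn1a (p21), a target of p53, had an SD of 2.11 in GMP-Dot and 1.74 in GMP-Control on the log2 scale. It read 8.08, 8.71, 4.57 and 4.98 in GMP-Dot, against 5.42, 8.63, 4.45, 7.63 and 7.56 in GMP-Control, so each group held arrays near both ends. The higher GMP-Dot values were those of the close pair of arrays, K1190 and K1272. In LSK-Dot it ran from 5.15 to 8.10 with a median of 7.68, against 6.61 to 8.12 with a median of 7.39 in LSK-Control. The 5.15 was K1359, below every LSK-Control array. The second probe set, 1421679_a_at, read 7.43, 7.02, 8.17, 4.98, 6.79 and 7.52 in LSK-Dot, against 5.69 to 6.30 in LSK-Control, so that K1359 alone was not above the controls. The 95% interval of its difference was 0.16 to 1.84 (adjusted p = 0.817 over all probe sets), where the representative had group means of 7.32 ± 1.11 in LSK-Dot and 7.29 ± 0.56 in LSK-Control (SD, n = 6 each). In GMP deletion and between control cell types 1421679_a_at differed by 0.66 ± 0.47 and 0.63 ± 0.42 (SE). Neither passed the threshold, and the representative had the other sign in both.

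Cdkn1b (p27), a brake on the division of resting cells, had lower means in the GMP groups by its representative probe set. It read 7.48, 8.02, 8.42 and 4.24 in GMP-Dot, against 8.46 to 10.23 with a median of 8.56 in LSK-Dot. The groups did not overlap, and the extremes were GMP-Dot K1421 and LSK-Dot K1272. The difference was -1.84 ± 0.69 (SE, adjusted p = 0.458), -1.57 without LSK-Dot K1272 and -0.91 without GMP-Dot K1421, and it was not called. The second probe set, 1434045_at, read 8.35, 8.06, 9.01 and 6.93 in GMP-Dot, against 3.75 on K1272 and 7.61 to 8.93 on the other LSK-Dot arrays. Its difference was 0.59 ± 0.80 and was not called. On LSK-Dot K1272 the 2 probe sets of Cdkn1b therefore stood at opposite ends of their own ranges. In controls both had a lower mean in GMP-Control, where the representative read 8.19, 9.03, 5.56, 9.04 and 7.84, against 8.32 to 9.43 in LSK-Control. There 1434045_at differed by -2.07 ± 0.75 (adjusted p = 0.0793 over all probe sets). In GMP deletion the 2 probe sets ran opposite ways. The representative had a mean of 7.04 in GMP-Dot and 7.93 in GMP-Control, while 1434045_at was higher in GMP-Dot by 1.62 ± 0.83 (adjusted p = 0.397). For the difference of the deletion effects 1434045_at gave 2.67 ± 1.10 (adjusted p = 0.372), and the representative had the other sign.

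**Figure D3:**
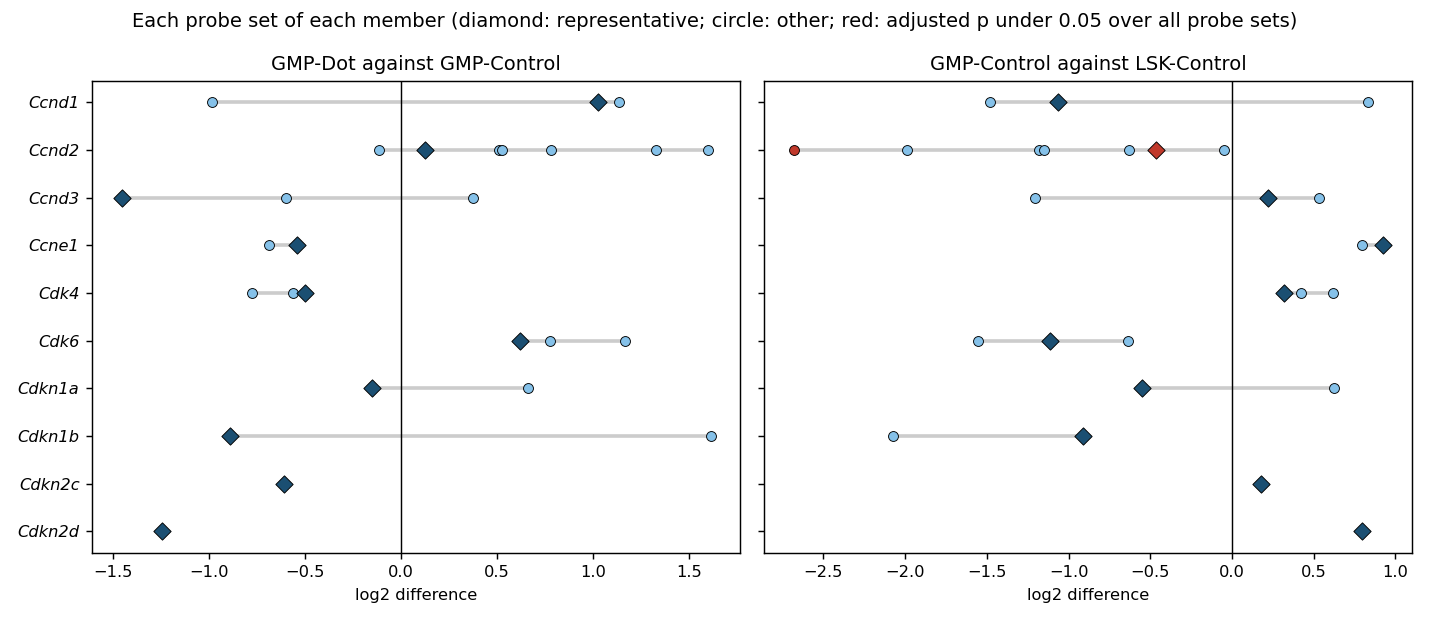
The log2 difference of every probe set of the 10 genes in GMP-Dot against GMP-Control and in GMP-Control against LSK-Control, with the representative as a diamond. In GMP-Control against LSK-Control all 7 probe sets of Ccnd2 lie below 0 and 2 of them are called, while the 3 probe sets of Ccnd1 lie on both sides of 0 in each comparison.

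The INK4 inhibitors had 1 probe set each, so their values have no second probe set beside them. Cdkn2d (p19INK4d), an inhibitor of Cdk4 and Cdk6, had the lowest p of the 10 genes in GMP deletion. It read 6.90, 6.35, 6.23 and 6.31 in GMP-Dot, against 7.07, 7.26, 8.31, 8.60 and 7.21 in GMP-Control. No GMP-Dot array reached the lowest GMP-Control array, a separation that 1 of the 10 genes and 4.78% of all genes showed in this comparison. The log2 difference was -1.25 ± 0.47 (SE, 95% interval -2.22 to -0.27, adjusted p = 0.264), and it was not called. It was -1.31 with the close GMP-Dot pair averaged (adjusted p = 0.505), and its adjusted p was 0.0611 without LSK-Dot K1272.

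In LSK-Dot Cdkn2d ran from 6.46 to 9.31 with a median of 7.20, against 6.06 to 7.55 with a median of 6.95 in LSK-Control. The 9.31 was K1272, and the other LSK-Dot arrays reached at most 7.45. In LSK deletion 0 of the 10 genes had ranges that did not overlap, where 0.33% of all genes did. The difference of the deletion effects was -1.75 ± 0.62 (adjusted p = 0.286) and -1.36 without LSK-Dot K1272 (adjusted p = 0.252). The difference in GMP-Dot against LSK-Dot was -0.95 ± 0.45 (adjusted p = 0.673), and -0.57 without LSK-Dot K1272. In GMP-Control against LSK-Control it was 0.79 ± 0.42 (adjusted p = 0.182), and 0.27 after adjustment for the upper quartile. Beside these values, the summed intensity of 8 late neutrophil markers was 2703.5 to 10406.9 in GMP-Dot and 8254.4 to 16009.4 in GMP-Control, and that of 7 B cell markers 286.0 to 458.3 in GMP-Dot and 613.0 to 2267.4 in GMP-Control. The part of either cell type in the values of Cdkn2d was not tested.

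Cdkn2c (p18INK4c), a Cdk6 and Cdk4 inhibitor known to limit the renewal of blood stem cells in mice, read 7.06, 7.41, 7.43 and 6.27 in GMP-Dot, against 7.17, 7.82, 7.81, 8.20 and 7.27 in GMP-Control. GMP-Dot K1272 and K1359 lay above the lowest GMP-Control arrays, so the groups overlapped. The difference was -0.61 ± 0.33 (SE, adjusted p = 0.399), and -0.35 without GMP-Dot K1421 (adjusted p = 0.565). In LSK the means were 7.55 ± 0.45 (SD, n = 6) in LSK-Dot and 7.48 ± 0.56 (n = 6) in LSK-Control.

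Other genes of the same pathway were read from lists. Of 31 other genes of the G1/S machinery, 0 were called in either deletion comparison, in the difference of the deletion effects or in GMP-Dot against LSK-Dot. In GMP-Control against LSK-Control 1 was higher and 2 were lower, so that 3 of 31 were called, below the 12.0% of all genes called there. Cdc25a, a phosphatase that activates Cdk2, had a mean of 7.71 in GMP-Control and 6.68 in LSK-Control (difference 1.03 ± 0.31, adjusted p = 0.0346). Rbl2 (p130), the retinoblastoma relative of resting cells, had 4.13 in GMP-Control and 7.52 in LSK-Control (-3.39 ± 0.54, adjusted p = 0.000661). Tfdp2, a partner of E2F factors, had 6.72 in GMP-Control and 8.65 in LSK-Control (-1.93 ± 0.51, adjusted p = 0.0206). The list's median was -0.27, against 0.28 for all genes and -0.07 for the genes above the median gene. In the deletion comparisons the lowest p belonged to Cdkn1c (p57, a Cip/Kip inhibitor), with 5.30 in LSK-Dot and 4.16 in LSK-Control (1.14 ± 0.36, adjusted p = 0.561), and to Rbl2, with 6.13 in GMP-Dot and 4.13 in GMP-Control (adjusted p = 0.182). Rbl2 also had the lowest p for the difference of the deletion effects (3.09 ± 0.79, adjusted p = 0.178), and E2f2 in GMP-Dot against LSK-Dot (-1.09 ± 0.52, adjusted p = 0.676).

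Of 20 upstream regulators, 4 were lower and 0 higher in GMP-Control than in LSK-Control, where 4.95% of all genes were called lower and 7.03% higher. All 20 had a lower mean, where 34.2% of all genes did. The median was -0.95, against 0.28 for all genes and -0.07 for the genes above the median gene. The 4 were Mdm2, the ubiquitin ligase of p53 (6.27 in GMP-Control and 9.46 in LSK-Control, -3.19 ± 0.57, adjusted p = 0.00160), Foxo3, a factor that keeps stem cells at rest (-1.93 ± 0.48, adjusted p = 0.0153), Smad3, which carries TGF-beta signals (-1.43 ± 0.36, adjusted p = 0.0161), and Jak2, the kinase of cytokine receptors (-2.35 ± 0.76, adjusted p = 0.0491). None of the 20 was called in the other comparisons. In LSK deletion 18 of 20 had a lower mean in LSK-Dot, where 41.6% of all genes did. That count includes K1272 and was not repeated without it. The mean log2 level of the list was 6.36 on K1272 and 8.05 to 8.31 on the other LSK-Dot arrays. In LSK-Control it was 7.96 to 8.53, a range that held all LSK-Dot arrays other than K1272. The summed intensity of the list was 3738.7 to 11294.1 in LSK-Dot, with the 3738.7 on K1272, and 9856.4 to 13326.1 in LSK-Control. The lowest p belonged to Smad4 in LSK deletion (-1.17 ± 0.56, adjusted p = 0.890), Mdm2 in GMP deletion (2.46 ± 0.63, adjusted p = 0.133) and in the difference of the deletion effects (3.22 ± 0.83, adjusted p = 0.181), and Tgfbr2 in GMP-Dot against LSK-Dot (-1.75 ± 0.88, adjusted p = 0.721).

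Of 17 p53 target genes, 3 were lower and 0 higher in GMP-Control than in LSK-Control: Mdm2, which stands in both lists, Trp53inp1 (5.85 in GMP-Control and 9.27 in LSK-Control, -3.42 ± 0.59, adjusted p = 0.00130) and Rrm2b, a ribonucleotide reductase subunit (-1.60 ± 0.44, adjusted p = 0.0252). The 3 of 17 stand beside the 4.95% of all genes called lower and the 12.0% called in either direction. Of the 17, 10 had a higher mean in GMP-Control and 7 a lower one. The list's median was 0.03, against 0.28 for all genes and -0.07 for the genes above the median gene. The other comparisons called 0 of the 17, and Trp53inp1 had the lowest p in LSK deletion (-1.64 ± 0.56, adjusted p = 0.642) and in GMP-Dot against LSK-Dot (-1.84 ± 0.63, adjusted p = 0.342). Of 22 proliferation genes, 0 were called in any comparison. The mitotic genes with the lowest p were Plk1 in LSK deletion (0.99 ± 0.40, adjusted p = 0.788), Bub1 in GMP deletion (2.63 ± 0.77, adjusted p = 0.175), Cdc20 in the difference of the deletion effects (-1.61 ± 0.49, adjusted p = 0.220) and in GMP-Dot against LSK-Dot (-0.67 ± 0.36, adjusted p = 0.767), and Cdk1 in GMP-Control against LSK-Control (1.39 ± 0.47, adjusted p = 0.0568).

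The genes whose levels ran most like each of the 10 over the 21 arrays are given as a description, by Pearson's r. The arrays share their groups and the spread of their values, and LSK-Dot K1272 stands apart among them, so r reflects all of these. The highest values were for Cdk6, with Foxj3 at 0.927 and Cd247 at 0.907, and for Cdkn2d, with Rab4b at 0.909 and Nme4 at 0.903. Ccnd1 ran most like Strap (0.870) and Klhl12 (0.857), Ccnd2 most like Plekho2 (0.823) and Procr (0.806), and Ccnd3 most like Rbm42 (0.874) and Zdhhc18 (0.857). Procr, the protein C receptor gene, is also one of the LSK markers. Ccne1 ran most like Ifi35 (0.785) and Cdca3 (0.770), Cdk4 most like Zmat5 (0.816) and Snrnp25 (0.782), and Cdkn1a most like Mmachc (0.844) and Acad9 (0.810). Cdkn1b ran most like Tmbim1 (0.895) and Ccdc9 (0.829), and Cdkn2c most like Fam174a (0.825) and Slc25a28 (0.814). None of the 20 nearest genes was another of the 10.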

How the data were processed

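Per the labels' protocols, biotin-labelled cRNA was made from 100 ng of total RNA of sorted cells and hybridised to Affymetrix arrays. The authors deposited 1 table of intensities, which the submitters' processing notes credit to RMA. They are taken as linear because of their size (array medians of 25.2 to 31.5). The sources used here give no genome build or scan batch.

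Intensities were put on the log2 scale and not normalized again. The platform annotation named 1 gene for 34958 probe sets, several for 932 and none for 9211. Symbols were checked through Entrez identifiers against a RefSeq table of GRCm38.p6, which matched 34754 and changed 0. Groups came from the sample titles. limma 3.58.1 in R 4.3.3 fitted 4 group means over 21 arrays, with Benjamini-Hochberg adjustment over all genes at 0.05. The fit was tested on simulated data.

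The genes, lists and comparisons were chosen with earlier results of these data known. Named were all 10 genes, up to 4 called members of each pathway list in each direction (the lowest p where none was called), the 2 nearest genes by correlation, and defining markers. Log2 differences by the representative probe set are printed for members with an unadjusted p under 0.1, and for Cdk6 in GMP deletion whatever its p. Those of other probe sets are printed for some comparisons only, without a threshold on p. Alternatives were other scalings, filters on dim genes, other probe sets, other variance models, array weights, replicate blocks, averaging of close arrays and leaving out each array. Arrays of different cell types share K numbers in their titles. The correlation of their deviations from the group means lay between -0.397 and 0.272 over 9 numbers, so the numbers were not taken to pair arrays.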

Additional observations from a re-analysis of the deposited data

Results flagged for a closer look

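Within the 40 sets of values (10 genes in 4 groups), 6 had a highest or lowest array whose gap to the nearest other array was a larger part of the group's range than Dixon's 95% critical value allows, where chance flags about 1 in 20 sets. GMP-Dot K1421 was the lowest of 4 for Ccnd3, at 5.60, and for Ccne1, at 5.86. GMP-Control K1601 was the lowest of 5 for Ccnd3, at 5.06. LSK-Dot K1359 was the lowest of 6 for Cdkn1a, at 5.15. LSK-Dot K1272 was the highest of 6 for Cdkn1b, at 10.23, and for Cdkn2d, at 9.31. The causes were not tested.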

How the results depend on the processing

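Each result was recomputed under up to 37 alternatives. The count of members called was 0 in LSK deletion, in GMP deletion and in the difference of the deletion effects under every alternative other than array weights, which called 1, 3 and 2. The estimate of these weights stopped before it converged and gave GMP-Dot K1190 a weight of 0.00801, so those counts are not relied on. It was 0 in GMP-Dot against LSK-Dot under all alternatives run. In GMP-Control against LSK-Control the count of 1 became 3 after quantile normalization again, 3 in a fit of the compared groups alone and 4 with array weights. It became 0 with genes above the median gene, 0 with genes at log2 of 6 or more on 4 arrays, 0 with a trended and 0 with a robust variance, and 0 with the close GMP-Dot pair averaged. With the K number as a replicate block it was 0, whether random (consensus correlation -0.177) or fixed, and the block changed no other count of members. With LSK-Dot K1272 left out and the close pair averaged together, an alternative chosen after seeing the data, it was 2. Leaving out 1 array gave 0 to 2. The adjusted p of Ccnd2 lay between 0.0108 and 0.283 and passed the threshold in 12 of 37 alternatives, always with a lower mean in GMP-Control. Of the 18 differences with an unadjusted p under 0.1, 0 changed sign in 657 recomputed values. Of the other 32 differences, 17 changed sign at least once, in 57 of 1163 values. With the upper quartile as a covariate the median of all genes in GMP-Control against LSK-Control was 0.01, a shift of -0.27, and in GMP deletion the shift was 0.13. Signal over background could not be read from these values, so which levels are near background was not tested.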
